A study of Bos taurus and Bos grunniens x Bos taurus and Bos grunniens with 18 samples.

Results

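Axonemal dyneins are the motor complexes that bend the sperm tail, and 7 genes for their chains were followed here through the testes of cattle-yak, cattle and yak. The genes were DNAH8, DNAH17, DNAI1 and DNAI2 of the outer dynein arm and DNAH1, DNAH2 and DNALI1 of the inner arms. They were taken by symbol from a table of mRNA levels with 19994 genes, and their transcripts were summed per gene. The table is in FPKM, fragments per unit of transcript length and of library size, so levels can be set side by side between genes. Comparisons between libraries also depend on how the libraries are scaled, and other scalings are given below. All 7 were found, and all 7 were among the 14091 genes that reached 1 FPKM in at least 3 libraries and were tested.

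The cattle-yaks, which the sample titles call Dzo, are hybrids of cattle and yak whose males are known to be sterile. Testes of 3 cattle-yaks, 3 cattle and 3 yaks were sequenced, 9 libraries in all. The animals were 4 years old, came from a single cooperative and were castrated for the study, and no group received a treatment. Breed, and which parent species was the dam of the hybrids, are not given in the sources used here, and each library was made from whole testicular tissue.

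In an axoneme, the outer arms are attached to the outer side of each doublet microtubule and set the beat frequency and power, while several kinds of inner arm shape the bend. Each arm is built around heavy chains, very large ATPases that do the stepping, with intermediate and light chains that tether the heavy chains to the microtubule and to each other. Arms are assembled in the cytoplasm by dedicated chaperones and are then carried into the tail and docked. Sperm use a partly different set of outer arm heavy chains from airway cilia: DNAH8 and DNAH17 in the sperm tail, and DNAH5, DNAH9 and DNAH11 in airway cilia. In men, mutations of DNAH1, DNAH2, DNAH8 and DNAH17 cause infertility with malformed or immotile sperm tails.

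All 7 dynein genes fell in cattle-yak testis, against cattle and against yak, to between 7.44 and 38.8% of the mean level of a parent species. The fall was deepest for DNALI1, DNAH17 and DNAH8 and shallowest for DNAH2. Across all genes tested, 30.0% were called lower against cattle and 30.7% against yak, out of 84.4 and 86.0% called in either direction. A call is an adjusted p under 0.05 in limma, a linear model with a spread shared across genes, fitted to log2(FPKM + 1) with Benjamini-Hochberg adjustment over the 14091 genes. The median log2 change of the 7 genes was -2.73 against cattle and -2.66 against yak, beside 0.50 and 0.54 for all genes tested. Both comparisons use the same 3 cattle-yak libraries, so the second is no repeat of the first.

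**Figure D1:**
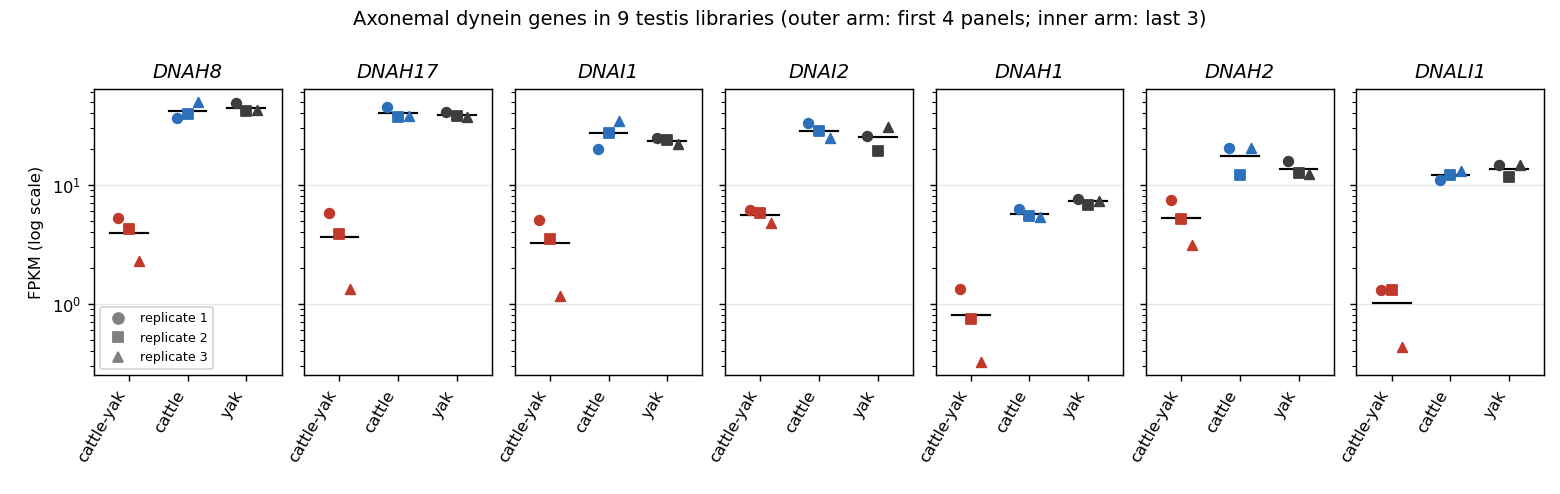
FPKM (log scale) of the 7 dynein genes in each of the 9 libraries, with cattle-yak left of cattle and yak; each symbol is 1 library and the black bar is the group mean. Every cattle-yak library lies below every cattle and yak library in all 7 panels, and cattle-yak replicate 3 is the lowest in each.

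DNAH8 encodes the outer arm heavy chain that takes in sperm the place of DNAH5 in airway cilia, and it was the most abundant of the 7 in both parent species. DNAH8 (ENSBTAG00000014063) had 5.25, 4.28 and 2.30 FPKM in the 3 cattle-yaks, against 36.2, 39.3 and 49.8 FPKM in cattle and 49.2, 42.1 and 42.5 FPKM in yak. The cattle-yak libraries lay far below those of both parents, and the cattle and yak libraries overlapped. Its mean was 3.94 ± 1.5 FPKM in cattle-yak, 41.8 ± 7.15 FPKM in cattle and 44.6 ± 3.99 FPKM in yak (SD, n = 3 each). Against cattle the log2 change was -3.15 ± 0.22 (SE; adjusted p = 5.34e-07, limma), and against yak it was -3.25 ± 0.22 (adjusted p = 3.89e-07). Of the 14091 genes, 5.38% had a lower log2 change than DNAH8 against cattle. In RefSeq's cattle annotation DNAH8 overlaps LOC101904084, which was not matched by symbol.

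DNAH17, the other heavy chain of the sperm outer arm, behaved much like DNAH8 in level and in change. DNAH17 (ENSBTAG00000000920) had 5.77, 3.83 and 1.33 FPKM in cattle-yak, against 45.3, 37.2 and 38.1 FPKM in cattle and 40.8, 37.7 and 36.9 FPKM in yak. The cattle-yak libraries were spread over a wider relative range than the parent libraries, with replicate 3 lowest. Means were 3.64 ± 2.23, 40.2 ± 4.47 and 38.5 ± 2.05 FPKM in cattle-yak, cattle and yak (SD, n = 3 each). Against cattle the log2 change was -3.28 ± 0.31 (SE; adjusted p = 3.98e-06, limma), and against yak it was -3.22 ± 0.31 (adjusted p = 3.60e-06). In the same annotation (assembly ARS-UCD2.0, another build than the deposited table) DNAH17 overlaps PGS1, and the sources used here do not say that counting used strand, so reads from the shared stretch cannot be assigned. PGS1 was at 8.77 to 12.2 FPKM in cattle-yak, against 7.11 to 8.37 FPKM in cattle and 4.98 to 5.85 FPKM in yak, so it did not share the fall.

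The intermediate chains DNAI1 and DNAI2 sit at the base of the outer arm and hold it to the doublet. DNAI1 (ENSBTAG00000008538) had 5.05, 3.49 and 1.17 FPKM in cattle-yak, against 20.0, 27.3 and 34.4 FPKM in cattle and 24.7, 23.8 and 22.3 FPKM in yak. Against cattle DNAI1 changed by -2.83 ± 0.32 in log2 (SE; adjusted p = 1.52e-05, limma), and against yak by -2.66 ± 0.32 (adjusted p = 2.03e-05). DNAI2 (ENSBTAG00000016732) had 6.19, 5.76 and 4.82 FPKM in cattle-yak, against 33.1, 28.2 and 24.7 FPKM in cattle and 25.9, 19.1 and 30.7 FPKM in yak. The 3 cattle-yak libraries lay much closer together for DNAI2 (5.59 ± 0.701 FPKM, SD, n = 3) than for its partner DNAI1 (3.24 ± 1.95 FPKM). DNAI2 changed by -2.17 ± 0.18 in log2 against cattle (SE; adjusted p = 1.66e-06, limma), and against yak by -1.97 ± 0.18 (adjusted p = 2.40e-06). It kept 19.5% of the cattle mean and 22.1% of the yak mean, while DNAI1 kept 11.9 and 13.7%.

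Of the inner arm genes, DNAH1 was the least abundant in all 3 groups. DNAH1 (ENSBTAG00000047794), an inner arm heavy chain needed for sperm tail structure in men, had 1.33, 0.753 and 0.323 FPKM in cattle-yak, against 6.32, 5.5 and 5.43 FPKM in cattle and 7.67, 6.80 and 7.34 FPKM in yak. The cattle-yak libraries were all at a low level, where the added 1 FPKM makes log2 changes smaller than the ratios of the FPKM. Against cattle the log2 change was -1.94 ± 0.19 (SE; adjusted p = 4.97e-06, limma), and against yak it was -2.24 ± 0.19 (adjusted p = 1.64e-06), and the mean FPKM was 13.9 and 11% of the means in cattle and yak.

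DNAH2, a heavy chain of the inner arm known as dynein f, fell least of the 7. DNAH2 (ENSBTAG00000008605) had 7.48, 5.21 and 3.11 FPKM in cattle-yak, against 20.3, 12.2 and 20.3 FPKM in cattle and 15.8, 12.6 and 12.4 FPKM in yak. Cattle replicate 2 was as low as the yak libraries, and all parent libraries lay above the cattle-yak ones. Against cattle the log2 change was -1.60 ± 0.27 (SE; adjusted p = 0.000224, limma), and against yak it was -1.27 ± 0.27 (adjusted p = 0.00103). Cattle-yak testes kept 29.9% of the cattle mean and 38.8% of the yak mean.

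DNALI1 encodes a light intermediate chain, and its counterpart in Chlamydomonas, a green alga, belongs to inner arms. DNALI1 (ENSBTAG00000002583) had 1.32, 1.3 and 0.438 FPKM in cattle-yak, against 11.05, 12.1 and 13.1 FPKM in cattle and 14.8, 11.6 and 14.6 FPKM in yak. Against cattle its log2 change was -2.73 ± 0.19 (SE; adjusted p = 6.62e-07, limma), and against yak it was -2.89 ± 0.19 (adjusted p = 3.95e-07). By the ratio of mean FPKM it was the lowest of the 7, at 8.42% of cattle and 7.44% of yak.

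In all 7 genes the cattle-yak libraries did not overlap those of either parent. Libraries did not overlap for 86.2% of all genes against cattle and for 88.2% against yak, so the absence of overlap does not set these genes apart. A log2 change below -2 was rarer: 10.5% of all genes reached it against cattle and 10.9% against yak, and among the 7 genes only DNAH1 and DNAH2 missed it against cattle and DNAI2 and DNAH2 against yak. Of the genes called in either direction, 35.5% were lower against cattle. That share moved to 51.0% with median-ratio scaling, 38.0% with quantile scaling and 62.2% with scaling to housekeeping genes. Against yak it was 35.7%, and 51.5, 39.1 and 69.0% under the same scalings. All 7 dynein genes remained called lower under each of these scalings, with medians from -3.63 to -2.82. Of the 11 housekeeping genes, 8 were themselves called higher and 1 lower in cattle-yak against cattle, and 9 higher and 1 lower against yak. Their median log2 changes were 0.88 and 1.67, beside 0.50 and 0.54 for all genes tested.

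Single transcripts gave the same calls, though for a gene with 1 listed transcript this is the same measurement. Of the 8 listed transcripts of these genes, 7 were tested, 1 per gene, and all 7 were called lower against both parents, beside 29.6% of 14721 transcripts against cattle and 30.4% against yak. The remaining transcript, a second one of DNAH8, was at 0.0668 FPKM or less in every library.

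No difference between the parent species passed the test in these genes. Between yak and cattle none of the 7 was called, beside 19.1% of all genes tested, and none had an unadjusted p under 0.05, beside 33.4%. Log2 changes of yak against cattle ran from -0.32 for DNAH2 to 0.29 for DNAH1, with a median of -0.06 for the 7 and -0.06 for all genes. DNAH1 came closest to a difference: its 3 yak libraries, at 6.80 to 7.67 FPKM, lay above its 3 cattle libraries, at 5.43 to 6.32 FPKM. Its log2 change of 0.29 had a 95% interval from -0.12 to 0.71 (limma, adjusted p = 0.307), and libraries of yak and cattle did not overlap in 39.9% of all genes. With scaling to housekeeping genes DNAH1 was called, at 0.62 (adjusted p = 0.0353). For DNAH8 the interval ran from -0.38 to 0.58 and for DNAH17 from -0.74 to 0.62, so differences of those sizes remain possible with 3 animals per species.

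The order of the dynein genes by level was not the same in the hybrid as in its parents. In cattle, mean FPKM ran from DNAH8 and DNAH17 (41.8 and 40.2) through DNAI2 and DNAI1 (28.7 and 27.2), DNAH2 (17.6) and DNALI1 (12.1) to DNAH1 (5.75). Yak had the same order down to DNAI1, with DNALI1 and DNAH2 at 13.7 and 13.6 FPKM and DNAH1 at 7.27 FPKM. Cattle-yak instead had DNAI2 (5.59) and DNAH2 (5.26) at the top, followed by DNAH8 (3.94), DNAH17 (3.64), DNAI1 (3.24), DNALI1 (1.02) and DNAH1 (0.80). In cattle, DNAH8 and DNAH17 and likewise DNAI2 and DNAI1 differed by less than the SD of either gene, and in yak so did DNALI1 and DNAH2. In yak DNAI2 and DNAI1 differed by less than the SD of DNAI2 (5.82 FPKM) but by more than that of DNAI1 (1.25 FPKM). In cattle-yak neighbours differed by less than the larger of their SDs, except DNAI1 and DNALI1.

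Ratios of FPKM within a library show which genes fell by more than others, whatever the scaling of that library. The differences in log2(FPKM + 1) tested below are not free of the scaling, because of the added 1 FPKM. The ratio of DNAH2 to DNAH17 was 1.3, 1.36 and 2.34 in the 3 cattle-yaks, and at most 0.531 in the 6 parent libraries. DNAH2 exceeded DNAH17 in every hybrid testis and in no parent testis. The difference in log2(FPKM + 1) between DNAH2 and DNAH17 was 1.81 higher in cattle-yak than in the parents, and that between DNAH2 and DNAH8 1.77 higher. Both gave p = 0.0238 by exact two-sided permutation test of 3 cattle-yak against 6 parent libraries. That is the smallest p this test can give here, since it doubles the p of the smaller tail. After adjustment over the 21 pairs both were at 0.0417. Of the 21 pairs, 12 reached that adjusted p, and in 9 of them DNAH2, DNAH1 or DNAI2 lost less on the log2(FPKM + 1) scale than DNAH8, DNAH17 or DNALI1.

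In the outer arm itself, the log2 difference of DNAH8 to DNAI2 was 1.13 lower and that of DNAH17 to DNAI2 1.18 lower in cattle-yak, each with an exact permutation p of 0.0238 (adjusted 0.0417). DNAH8 and DNAH17 were both below DNAI2 in each cattle-yak library and both above it in each parent library. DNAH8 against DNAH17 moved by 0.05 (exact permutation p = 0.857), and their FPKM ratio of 0.911 to 1.74 in cattle-yak overlapped that of 0.798 to 1.31 in the parents. DNAI1 to DNAI2 was at 0.815, 0.606 and 0.243 in cattle-yak, against 0.604 to 1.39 in the parents (exact permutation p = 0.119). These calls have no margin in this test, whose smallest p rests on that doubling. With a pseudocount of 0.1 in place of 1, 10 pairs had the smallest p of 0.0238 but an adjusted p of 0.05, so none was called. None was called either when any 1 library was left out. Pairs with low genes also depend on the pseudocount in size, and DNAH8 to DNALI1 was at -0.39 with 1 and at 0.17 with 0.1, while DNAH2 to DNAH17 (2.02) and DNAH2 to DNAH8 (1.89) were about as large.

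**Figure D2:**
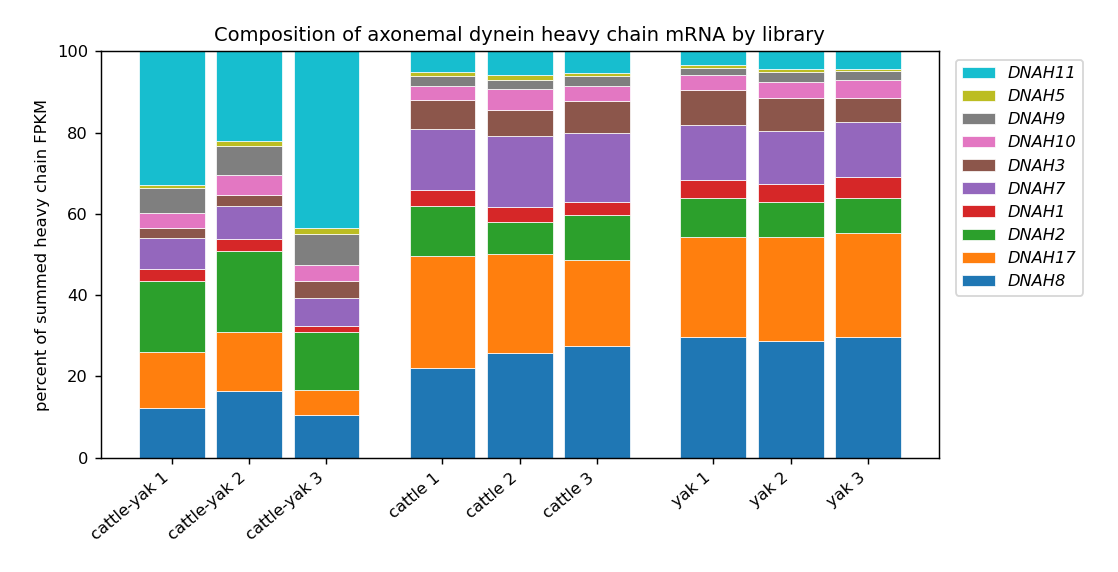
Share of each of 10 axonemal dynein heavy chain genes in their summed FPKM, 1 bar per library, with cattle-yak left of cattle and yak. DNAH8 and DNAH17 are the largest parts of each parent bar, while DNAH11 takes 22% or more of each cattle-yak bar and 5.90% or less of each parent bar.

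The mix of heavy chain mRNA was different in the hybrid. The 10 heavy chain genes found in the table summed to 42.6, 26.2 and 21.8 FPKM in cattle-yak, against 143 to 181 FPKM in the parent libraries. DNAH8 made up 10.6 to 16.3% of that sum in cattle-yak, against 22 to 29.7% in the parents, and DNAH17 made up 6.08 to 14.7%, against 21.1 to 27.6%. DNAH2 went the other way, with 17.6, 19.9 and 14.2% in cattle-yak, against 7.96 to 12.4% in the parents. No share of these 3 genes in a cattle-yak library overlapped the parent range. These shares are given without a test, since the shares of a library are tied to each other.

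**Figure D3:**
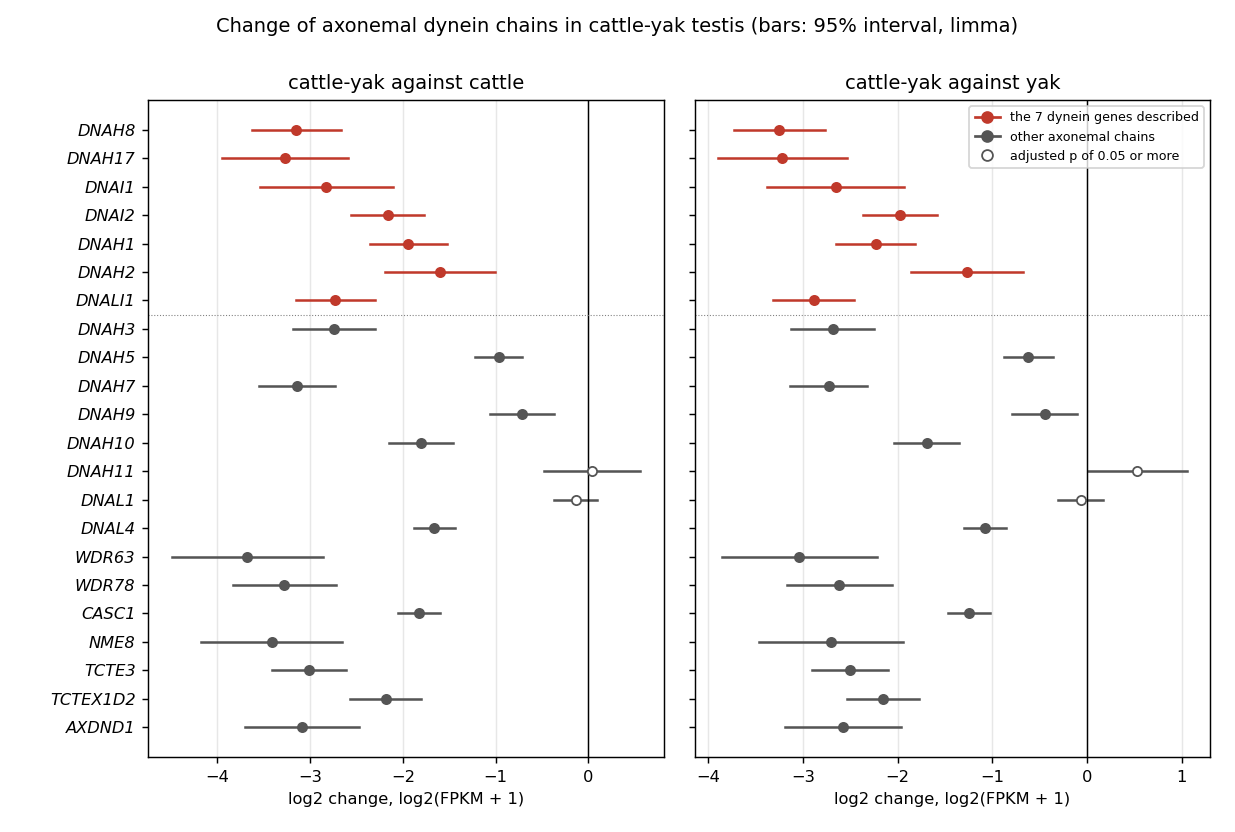
Log2 change on the log2(FPKM + 1) scale of the 7 dynein genes (red) and 15 other axonemal dynein chain genes (grey) in cattle-yak against cattle (left) and against yak (right), with 95% limma intervals; open circles have an adjusted p of 0.05 or more. All 7 red points and 13 of 15 grey points are called lower in each panel, and DNAH11 and DNAL1 are not called.

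Most other axonemal dynein chain genes fell as well. Of 20 further chain genes listed, 17 were found, 15 were tested and 13 were called lower against each parent, with none higher and with median log2 changes of -2.19 and -2.16. The share called lower over all genes tested was 30.0% against cattle and 30.7% against yak. Among inner arm heavy chains, DNAH3 had log2 changes of -2.74 against cattle and -2.69 against yak, DNAH7 of -3.14 and -2.73, and DNAH10, which works beside DNAH2, of -1.81 and -1.69. The most abundant of the list were WDR63, an inner arm intermediate chain, at 15.6, 10.9 and 3.56 FPKM in cattle-yak, against 69.6 to 129 FPKM in the parents, and NME8, an outer arm component with a thioredoxin domain, at 13.5, 9.45 and 3.53 FPKM, against 46.9 to 101 FPKM. TCTEX1D2, a light chain, changed by -2.19 in log2 against cattle and by -2.16 against yak. DNAH7 overlaps SLC39A10 in RefSeq's annotation, which was at 15.9 to 19.9 FPKM in cattle-yak, against 5.64 to 6.07 FPKM in cattle and 4.46 to 5.90 FPKM in yak. Each of the falls named here had an adjusted p of 2.69e-05 or less (limma).

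The outer arm heavy chains known from airway cilia had smaller log2 changes than DNAH8 and DNAH17, DNAH5 and DNAH9 at levels where the added 1 FPKM shrinks them. DNAH5 had 0.28 to 0.349 FPKM in cattle-yak, against 1.4 to 1.64 FPKM in cattle and 0.803 to 1.16 FPKM in yak, with log2 changes of -0.97 (limma, adjusted p = 1.96e-05) and -0.62 (adjusted p = 0.000441). DNAH9 changed by -0.72 in log2 against cattle (adjusted p = 0.0013) and by -0.45 against yak (adjusted p = 0.0193), and the second call was lost without cattle-yak replicate 2 (0.0571), cattle-yak replicate 3 (0.0826) or yak replicate 2 (0.0682). DNAH9 overlaps ZNF18 in RefSeq's annotation, and ZNF18 was at 11.8 to 29.6 FPKM in cattle-yak, against 156 to 246 FPKM in cattle and 179.5 to 230.3 FPKM in yak; its part in the DNAH9 values was not tested.

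DNAH11 was not called in either comparison. It had 14.0, 5.77 and 9.47 FPKM in cattle-yak, against 8.46, 9.02 and 9.37 FPKM in cattle and 5.61, 6.49 and 6.10 FPKM in yak. Its log2 change was 0.04 against cattle (95% interval -0.48 to 0.56; limma, adjusted p = 0.887) and 0.53 against yak (0.01 to 1.05; adjusted p = 0.0537). The direction against cattle hung on the scaling and the call against yak on 1 library: DNAH11 was called lower against cattle with scaling to housekeeping genes (-0.73, adjusted p = 0.0254) and higher against yak without cattle-yak replicate 2 (0.83, adjusted p = 0.00121). With the other heavy chains down, DNAH11 held 32.9, 22 and 43.4% of the heavy chain FPKM in cattle-yak, against 3.38 to 5.90% in the parents. In RefSeq's annotation DNAH11 overlaps CDCA7L, which stood at 42.7 to 55.4 FPKM in cattle-yak, against 10.4 to 11.7 FPKM in cattle and 7.71 to 11 FPKM in yak; its part in the DNAH11 values was not tested. DNAL1, a light chain that binds an outer arm heavy chain, was chosen after its values were seen: it had 22.6 to 24.8 FPKM in cattle-yak, against 25.3 to 27.6 FPKM in cattle and 22.6 to 28.5 FPKM in yak (log2 change -0.14 and -0.07, adjusted p = 0.239 and 0.55).

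The hybrid testes were not alike in how much dynein mRNA they kept. The 7 genes summed to 32.4, 24.6 and 13.5 FPKM in cattle-yak replicates 1, 2 and 3, against 162 to 186 FPKM in cattle and 154 to 179 FPKM in yak. Replicate 3 was lowest and replicate 1 highest for each of the 7 genes. Set against the mean of the 6 parent libraries, DNAH17 was at 14.7% in replicate 1 and 3.37% in replicate 3, and DNAI1 at 19.9 and 4.61%. DNAI2 varied least, with 23, 21.4 and 17.9%. Replicate numbers carry no order. The same ranking of the 3 cattle-yaks was seen in 19.1% of all genes tested. Among the 3798 genes called lower against both parents it was seen in 41.6%. Replicate 3 was lowest, whatever the order of the others, in 4899 of the 14091 genes tested and in 2594 of those 3798. The 7 genes remained called lower against both parents when any 1 library was left out. In those fits the log2 change of DNAH17 against cattle ran from -3.61 to -2.84 and that of DNAH2 from -1.84 to -1.32.

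**Figure D4:**
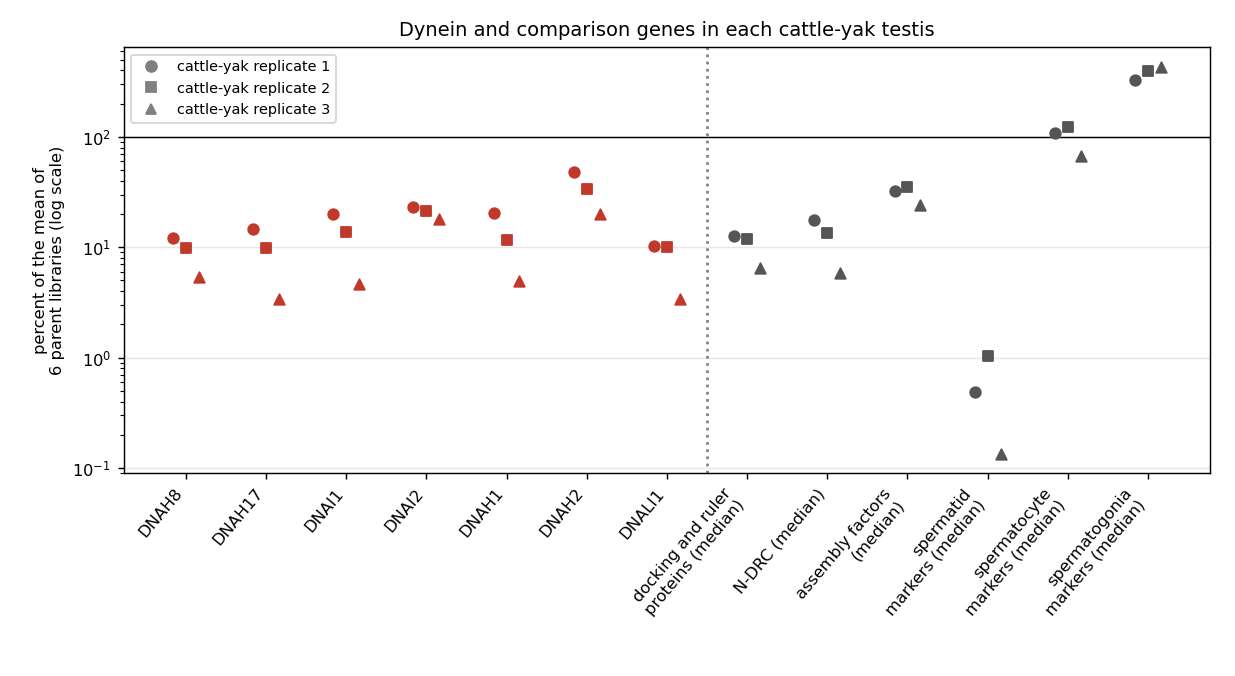
Level in each cattle-yak library as a percent of the mean of the 6 parent libraries (log scale), for the 7 dynein genes (red) and as list medians for related genes and germ cell markers (grey). Replicate 3 is lowest for each dynein gene, spermatid markers lie at 1.04% or less, and spermatogonia markers lie above 100%.

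Of the germ cell markers, those of spermatids fell by more than the dyneins, while those of earlier stages did not fall together. All 10 spermatid markers were called lower against both parents (median log2 change -6.58 and -6.65), and summed to 20.2 to 103 FPKM in cattle-yak, against 15754 to 27116 FPKM in cattle and 20442 to 22629 FPKM in yak. Of them ACRV1 was at 0 in cattle-yak replicate 3, and PRM1, a sperm protamine, was at 25.8, 41.3 and 5.29 FPKM in cattle-yak. Replicate 3 was lowest for 10 of 10 spermatid markers too, beside 2594 of the 3798 genes called lower against both parents. Replicate 2, not 1, was highest for most of these markers, PRM1 among them. Spermatocyte markers were split: of 10, 3 were higher and 2 lower against cattle, and against yak 2 were higher and 2 lower. Their sum was 482 to 702 FPKM in cattle-yak, 459.8 to 479 FPKM in cattle and 400.5 to 458 FPKM in yak. The 7 tested spermatogonia markers, 7 Sertoli cell markers, 6 Leydig cell markers and 5 peritubular smooth muscle markers were all called higher in cattle-yak against both parents, as were 54.4% of all genes against cattle and 55.3% against yak. In whole testis, fewer cells of a type and less RNA per cell cannot be told apart, and the part of cell type shares in the dynein values was not tested.

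Multiciliated epithelium, as in the efferent ducts, also uses axonemal dynein. Its 8 tested markers were all called lower in cattle-yak against both parents, beside 30.0% of all genes against cattle and 30.7% against yak. FOXJ1 and GMNC are among them and are counted again with the transcription regulators below. Whether the mRNAs of this list came from such epithelium or from germ cells was not tested. The list summed to 8.01 to 20.3 FPKM in cattle-yak, against 261 to 268 FPKM in cattle and 257 to 287 FPKM in yak. The other 2, MCIDAS and CCNO, which commit cells to the multiciliated fate, were at or near 0 in every library, at no more than 0.0864 and 0.0825 FPKM. Of 5 tested markers of epididymis and rete epithelium, 4 were called higher in cattle-yak against each parent, beside 54.4 and 55.3% of all genes. The 8 markers found summed to 123 to 160 FPKM in cattle-yak, against 102 to 142 FPKM in cattle and 135 to 151 FPKM in yak.

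**Figure D5:**
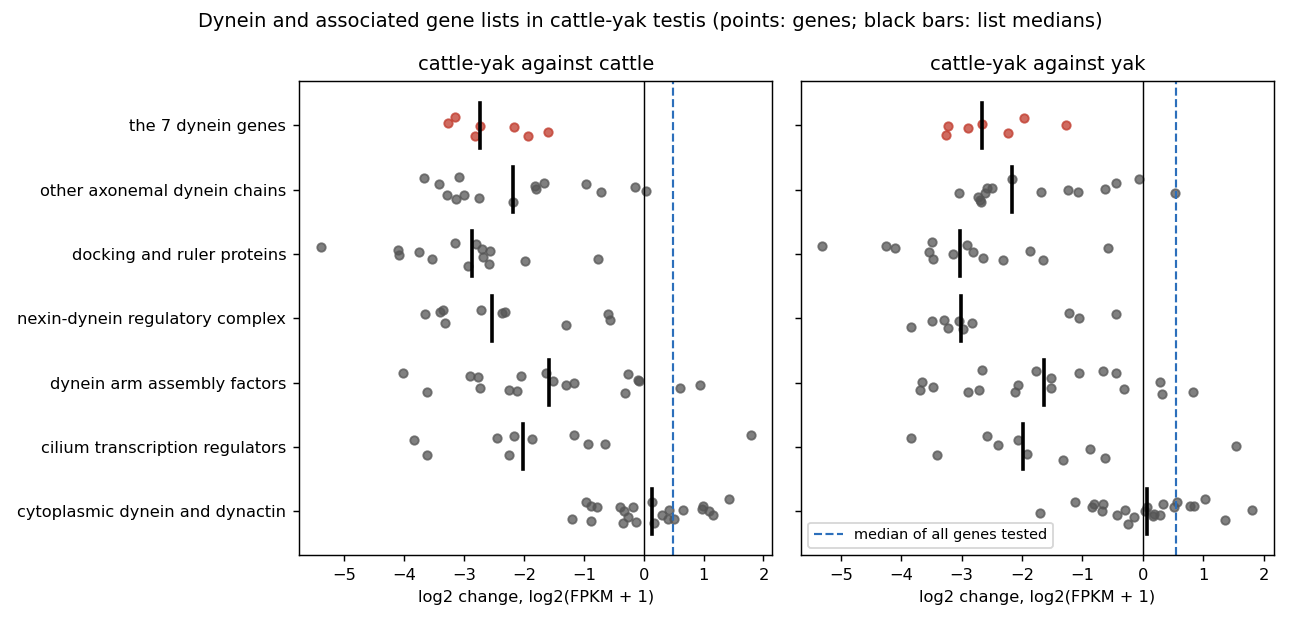
Log2 change on the log2(FPKM + 1) scale of genes in 7 lists, in cattle-yak against cattle (left) and against yak (right); each point is a gene, black bars are list medians and the dashed line is the median of all genes tested. The dynein genes and the lists for docking, the nexin-dynein regulatory complex and other chains lie mostly left of 0, while cytoplasmic dynein and dynactin spread around 0.

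The mRNAs for structures that receive the arms fell together with those of the arms. All 14 tested docking and ruler genes, whose proteins fix where arms and spokes attach along the doublet, were called lower against both parents, with medians of -2.88 and -3.03. Among all genes tested, 30.0% were called lower against cattle and 30.7% against yak. CCDC63, an outer arm docking protein, had 0.642, 0.74 and 0.227 FPKM in cattle-yak, against 60.2 to 68.4 FPKM in cattle and 46.2 to 73.7 FPKM in yak, and log2 changes of -5.40 (limma, adjusted p = 3.61e-09) and -5.31 (adjusted p = 3.74e-09). This log2 change was larger in size than that of any of the 7 dynein genes. CCDC40, part of the ruler that sets the axonemal repeat, had 11.4, 9.51 and 4.13 FPKM in cattle-yak, against 46.8 to 65.1 FPKM in cattle and 72.7 to 82.8 FPKM in yak. CFAP206, a docking factor at a radial spoke, had log2 changes of -4.10 and -3.53. All 10 tested genes of the nexin-dynein regulatory complex, the link between doublets that governs the inner arms, were called lower as well, with medians of -2.54 and -3.01. Its most abundant members had log2 changes against cattle and yak of -2.31 and -2.83 (IQCG), -3.41 and -3.29 (CCDC65) and -3.32 and -3.22 (DRC1).

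The factors that assemble arms in the cytoplasm were mixed. Of 18 tested, 12 were called lower and 2 higher against cattle, and 14 lower and 3 higher against yak, with medians of -1.58 and -1.64. Beside this, 30.0% of all genes tested were called lower and 54.4% higher against cattle, and 30.7 and 55.3% against yak. DNAAF1, which people need for both outer and inner arms, was the most abundant, with 91.6, 74.5 and 22.2 FPKM in cattle-yak, against 812, 899 and 962 FPKM in cattle and 758, 641 and 716 FPKM in yak (log2 change -4.03 and -3.69; limma, adjusted p = 6.86e-06 and 1.03e-05). CFAP298 had log2 changes of -1.52 and -2.07, and RUVBL1, an ATPase of a general chaperone complex, of -2.05 and -1.05. DNAAF5 rose by 0.94 and 0.83 (adjusted p = 0.000119 and 0.000266), to 8.50 to 9.67 FPKM in cattle-yak, against 3.42 to 4.97 FPKM in cattle and 4.07 to 5.07 FPKM in yak. WDR92 rose by 0.60 and 0.28. RUVBL2, the partner of RUVBL1, was at -0.08 against cattle (adjusted p = 0.589) and was called higher against yak, at 0.32. The values of all 3 genes depend on the scaling. With housekeeping scaling, DNAAF5 was no longer called, at 0.18 against cattle (adjusted p = 0.342) and -0.23 against yak (adjusted p = 0.215). WDR92 was then at -0.22 against cattle (adjusted p = 0.178) and was called lower against yak, at -0.88 (adjusted p = 0.000117). RUVBL2 was called lower against cattle with median-ratio scaling (-0.63, adjusted p = 0.000998) and with housekeeping scaling (-0.92, adjusted p = 0.000708). Against yak it was called lower under the same scalings, at -0.32 (adjusted p = 0.038) and -0.87 (adjusted p = 0.000949). With median-ratio scaling DNAAF5 against yak was at 0.25 (adjusted p = 0.0831) and WDR92 against cattle at 0.06 (adjusted p = 0.629). WDR92 against yak was called lower with that scaling, at -0.35 (adjusted p = 0.012). Leaving out 1 library ended the call against yak for WDR92 with each of 7 libraries and for RUVBL2 with each of 5.

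Cytoplasmic dynein, which carries cargo along microtubules in most cells and within cilia, had genes called in both directions. Of 23 tested genes of cytoplasmic dynein and dynactin, its cofactor, 8 were called lower and 10 higher against cattle, and 9 lower and 9 higher against yak, with medians of 0.14 and 0.07. Over all genes tested, 30.0% were called lower and 54.4% higher against cattle, and 30.7% lower and 55.3% higher against yak. With median-ratio scaling the counts were 14 lower and 5 higher against cattle and 15 lower and 3 higher against yak, so their direction rests on the scaling. The abundant light chain DYNLT1 had 65.6 to 66.4 FPKM in cattle-yak, against 133 to 172 FPKM in cattle and 131 to 155 FPKM in yak, and log2 changes of -1.2 and -1.12 (limma, adjusted p = 4.96e-06 and 6.53e-06). PAFAH1B1, the regulator known as LIS1, changed by -0.78 and -0.84. DYNLL1 changed by -0.33 (adjusted p = 0.0134) and -0.65 (adjusted p = 0.000177), and the call against cattle was lost without cattle-yak replicate 2 (adjusted p = 0.0556) and with quantile scaling (-0.18, adjusted p = 0.195).

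Transcription regulators known to drive cilium or spermatid genes were mostly lower. Of 10 tested, 9 were called lower and 1 higher against each parent, with medians of -2.02 and -1.99. Lower calls made up 30.0% of all genes tested against cattle and 30.7% against yak. CREM, an activator of spermatid genes, had 17.5, 15.6 and 6.52 FPKM in cattle-yak, against 163 to 207 FPKM in cattle and 176 to 203 FPKM in yak. RFX2, a regulator of cilium genes, had 6.03, 5.26 and 1.51 FPKM in cattle-yak, against 52.1 to 68.5 FPKM in cattle and 41.4 to 56.7 FPKM in yak. In both genes, as in the dyneins and in 2594 of the 3798 genes called lower against both parents, replicate 3 was lowest. MYBL1, which acts in pachytene spermatocytes, had log2 changes of -0.93 and -1.32. The gene that rose was MYB, a relative of MYBL1 known from blood progenitors, with 9.86 to 11.2 FPKM in cattle-yak, against 1.45 to 3.28 FPKM in cattle and 2.25 to 3.77 FPKM in yak (log2 change 1.79 and 1.54; limma, adjusted p = 1.81e-05 and 4.57e-05).

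Likeness of pattern was measured as the distance of log2(FPKM + 1), centred per gene, over the 9 libraries, among 8443 named genes whose parent libraries averaged 5 FPKM or more. It is a description with no test, in which the size of the fall in cattle-yak weighs heavily. Among the 7 genes, the nearest pair was DNAH8 and DNALI1 at 0.655, then DNAH8 and DNAH17 at 0.697, and the farthest was DNAH2 and DNAH17 at 2.66. The nearest genes of all were ADAD1 (0.263), ZC2HC1C and PHKG2 for DNAH8, FSIP2 (0.352), MORN5 and HSPA4L for DNAH17, and LRRC6 (0.266), SPAG6 and CATSPERG for DNAI1. For DNAI2 they were ITPKC (0.365), GCNT3 and C4H7orf57, for DNAH1 SIL1 (0.312), FANCL and TNFAIP8L1, for DNAH2 TTC21A (0.563), KLHL3 and MLLT10, and for DNALI1 MSTO1 (0.272), ADGB and TDRD6. DNAH2 had the most distant nearest gene of the 7. ADAD1 had means of 35.7 FPKM in cattle-yak, 329.9 FPKM in cattle and 359 FPKM in yak, and FSIP2 had 4.95, 54.3 and 54.2 FPKM, so both lay far lower in cattle-yak.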

How the data were processed

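The deposited mRNA table gave FPKM per transcript for the 9 testis libraries (22118 transcripts, UMD3.1 identifiers). Per the labels' protocols, RNA was depleted of rRNA, made into directional libraries and sequenced as paired 125-base reads. The submitters' processing notes name Bowtie, Cufflinks, HISAT2 2.0.5, StringTie 1.3.4 and Trimmomatic without roles. Whether counting used strand is not stated in what was used here. Summed FPKM per library lay between 408528 and 481551, and the read depth behind the FPKM is unknown: no more than 5.97% of low values fell at a shared step, so whole reads were not recovered. Precision is therefore that of the spread between 3 animals.

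FPKM were summed per gene, and genes of at least 1 FPKM in at least 3 libraries were tested with limma 3.58.1 in R 4.3.3 on log2(FPKM + 1), with group as the only term, a trend, and two-sided p-values adjusted by Benjamini-Hochberg. The script was tested on simulated data in which few of the genes changed. That test does not cover data in which most genes are called, as here. Fold changes on this scale understate those of low genes. Alternatives were other pseudocounts, filters and scalings, single transcripts, a replicate block, fits of only the groups compared and leaving out each library.

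The dynein genes and all lists were chosen with earlier results of these data known. The text names all 7 genes, every listed heavy chain, the 3 most abundant tested genes of each list, genes called against their list's majority, and the 3 genes most like each of the 7; some of these are not given. DNAH6, DNAH12 and DNAH14 were not matched by symbol. Overlaps came from RefSeq (ARS-UCD2.0) by neighbourhood only. The circRNA table names no host genes and was not used, and 9 small RNA samples were not analysed here.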

Additional observations from a re-analysis of the deposited data

How the results depend on the processing

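In cattle-yak against each parent, all 7 dynein genes kept their direction and call under the 19 alternatives run for each, with adjusted p at most 0.00529. Scaling shifts the median of all genes: it was 0.50 against cattle and 0.54 against yak as deposited, 0.01 and -0.02 with median-ratio, 0.40 and 0.38 with quantile and -0.24 and -0.51 with housekeeping scaling. Of single genes, DNAH11 turned to -0.73 and WDR92 to -0.22 against cattle with housekeeping scaling. Against yak, median-ratio scaling gave -0.35 for WDR92, -0.32 for RUVBL2 and -0.35 for DCTN3, housekeeping scaling gave -0.23 for DNAAF5, -0.88 for WDR92, -0.87 for RUVBL2 and -0.90 for DCTN3, and quantile scaling gave 0.014 for DCTN2. Which of these scalings fits the testes best was not tested.

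Counts moved mainly in yak against cattle. With housekeeping scaling they were 1 for the dynein genes (0 as reported), 0 for other chains (2), 8 for assembly factors (2; 4 with median-ratio scaling), 3 for the nexin-dynein regulatory complex (0), 10 for cytoplasmic dynein (6) and 2 for regulators (1). Leaving out 1 library gave 1649 to 2899 genes called (2692 with all; lowest without cattle replicate 2), 2 to 7 other chains, 1 to 5 assembly factors, 1 to 4 docking genes (1 with all), 0 to 2 of the nexin-dynein complex, 3 to 8 of cytoplasmic dynein and 0 to 1 regulators; the upper ends for chains, assembly and docking came without cattle-yak replicate 3. Of the pair ratios 12 were called, and 0 with a pseudocount of 0.1, with cattle alone or yak alone as parents (where no p is under 0.1), and 0 to 0 on leaving out 1 library, where fewer libraries raise the smallest p.

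Replicate numbers did not pair animals: correlations of deviations between libraries of the same number ran from -0.172 to 0.226. With the replicate block 7 of 7 dynein genes were called against both parents, regulators in yak against cattle went to 0, and DCTN2 against yak was lost (adjusted p = 0.0653). The circRNA results planned for these genes were not run, since the table names no host genes. Depth is unknown, so a level near 0, as for DNAH1 or CCDC63 in cattle-yak, has no counting error attached.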

Other observations

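Between yak and cattle, the genes called around the dynein arms were 2 of 15 other chain genes, 2 of 18 assembly factors, 1 of 14 docking genes, 0 of 10 genes of the nexin-dynein regulatory complex (limma; also 0 at an unadjusted p under 0.05), 6 of 23 of cytoplasmic dynein and dynactin and 1 of 10 regulators, beside 19.1% of all genes tested. RUVBL1 was lower in yak, with 179, 157 and 152 FPKM in yak, against 318, 325 and 336 FPKM in cattle (log2 change -1.0; limma, adjusted p = 0.0023), and CFAP298 was higher in yak, with 514, 409 and 506 FPKM, against 312, 322 and 336 FPKM in cattle (0.55, adjusted p = 0.0199). CFAP298 was the 1 assembly factor called higher in yak, and none was called higher without cattle replicate 1 or 2 or without yak replicate 1 or 3. DNAL4, a dynein light chain, had 36.8, 36.9 and 35.2 FPKM in yak, against 55.5, 51.5 and 57.6 FPKM in cattle (-0.58, adjusted p = 0.00323). DNAL4 was chosen after its values were seen, and with housekeeping scaling none of the 15 other chain genes, DNAL4 included, was called. As deposited, all 15 had log2 changes below 0 in yak against cattle, from -0.71 to -0.03. Their median was -0.50, beside -0.06 for all genes tested. With housekeeping scaling these medians were -0.16 and 0.25. Yak levels, like those of cattle, are given for cattle gene identifiers (UMD3.1), and any effect of this on the species differences was not tested.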
